A study of Mus musculus with 50 samples.

Results

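The genes described here encode the proteasome, its activators and its assembly chaperones, measured in mouse hippocampus and neocortex. A gene was taken where its single symbol in the platform's probe-to-gene table starts with Psma, Psmb, Psmc, Psmd, Psme, Psmf or Psmg, leaving out Psmb8, Psmb9 and Psmb10, the interferon-inducible catalytic subunits. That gave 43 genes of 8252 with a single symbol, read by 55 of 10855 probe sets, and each gene is represented by its probe set of highest mean signal over all 50 arrays. By their textbook roles, 41 of the 43 are subunits, activators or chaperones. Psmc3ip and Psme3ip1 share only the start of the symbol and encode proteins named for binding Psmc3 and Psme3. No Psmf symbol was among the single symbols, and Psme2 was not taken because its 2 probe sets carry the symbols Psme2 and Psme2b together. Of the 43 genes, 41 passed the filter on dim probe sets and entered the tests. Psmd2, a large scaffold subunit of the regulatory particle, and Psmc3ip did not pass, with mean signals of 131 and 40.1.

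The series addressed how loss of either of 2 receptors for sphingosine 1-phosphate, a signalling lipid, alters brain transcripts. Mice deficient in S1P2 are described as having seizures before the age of sampling, and mice deficient in S1P3 as free of them. The groups, each of mice 8 weeks old and one array per sample, were S1P2-KO hippocampus (n = 10), S1P3-KO hippocampus (n = 5), wild-type hippocampus (n = 10), S1P2-KO neocortex (n = 10), S1P3-KO neocortex (n = 5) and wild-type neocortex (n = 10). The S1P2-KO and wild-type groups held 5 males and 5 females per tissue, and the S1P3-KO groups 2 males and 3 females. Strain, alleles, the cells in which the genes are deleted and whether both tissues came from the same animals are not given in the sources used here, and the labels call the replicates biological without further detail, so p-values measure the spread between these samples.

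The proteasome degrades proteins that carry ubiquitin chains. Its core particle is a barrel in which rings of alpha subunits gate the entrance and rings of beta subunits hold the proteolytic sites inside. A regulatory particle caps the barrel: its ubiquitin receptors and a deubiquitinating enzyme handle the substrate, and a ring of ATPases unfolds it and threads it in. Alternative activators open the gate without ubiquitin, and dedicated chaperones assemble both particles. In neurons the proteasome turns over synaptic proteins, and its subunit genes are known to be induced together when proteolysis is impaired.

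Values are the deposited MAS5 intensities, referred to here as signals. Tests used limma on log2(signal + 30.7), the offset being the 10th percentile of all signals, so that a log2 difference understates the change of dim genes. P-values were adjusted by the Benjamini-Hochberg method over 8534 probe sets, and only an adjusted p under 0.05 is called a change. Errors after a mean are SDs and errors after a log2 difference are SEs. A signal depends on the probes, so levels of different genes are not set against each other.

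The arrays shared a trimmed mean, 1000.56 to 1000.66, while their median signals ran from 299.6 to 414. The lowest median was on S1P3-KO hippocampus replicate 5 and the next, 328.75, on S1P2-KO hippocampus replicate 7. The log2 ratio of 3′ to 5′ signal for the control transcripts Gapdh and beta-actin, which rises as RNA degrades, was above 1 on 3 arrays, all from hippocampus. It was 1.37 on S1P2-KO replicate 7, 4.46 on S1P3-KO replicate 5 and 1.20 on wild-type replicate 4, against a range of 0.00836 to 0.749 on the other arrays. S1P3-KO hippocampus replicate 5 also had a median correlation of 0.85 with arrays of its tissue, where no other array was below 0.926. It carried the highest mean log2 value over the 41 tested genes, 11.44, so the main results that use it are given with and without it. The labelled genotypes were only partly visible in the targeted genes. S1pr2 had signals of 542 ± 144 in S1P2-KO hippocampus against 649 ± 173 in wild-type hippocampus, and 628 ± 147 in S1P2-KO neocortex against 672 ± 137 in wild-type neocortex. S1pr3 had signals of 495 ± 42.7 in S1P3-KO hippocampus against 827 ± 204 in wild-type hippocampus, and 729 ± 242 in S1P3-KO neocortex against 859 ± 168 in wild-type neocortex. Whether these probe sets lie in the deleted sequence is not known here, so each genotype name stands for the label of the arrays. The tissue labels were borne out by summed signals of 6 neocortex markers, 5090.4 to 9565 on hippocampus arrays against 17005 to 23934 on neocortex arrays. Those of 6 hippocampus markers were 4149 to 10702 against 3033 to 4450. The lowest hippocampus value, on an S1P3-KO array, thus lay within the neocortex range.

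The median residual SD on the log2 scale was 0.23 for the 41 tested genes and 0.30 for all tested probe sets. Signals are given by role as the level at which each gene was read. Within the core particle, the 7 alpha subunits had mean signals from 794 to 7042 and the 7 beta subunits from 2616 to 8622. The 6 ATPases of the regulatory particle ranged from 178 to 4783 and its 11 other subunits from 131 to 5064. The base chaperones Psmd5, Psmd9 and Psmd10 ranged from 391 to 2074, the activators Psme1, Psme3 and Psme4 from 828 to 1810.1, and the core chaperones Psmg1 to Psmg4 from 343 to 1108.

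**Figure D1:**
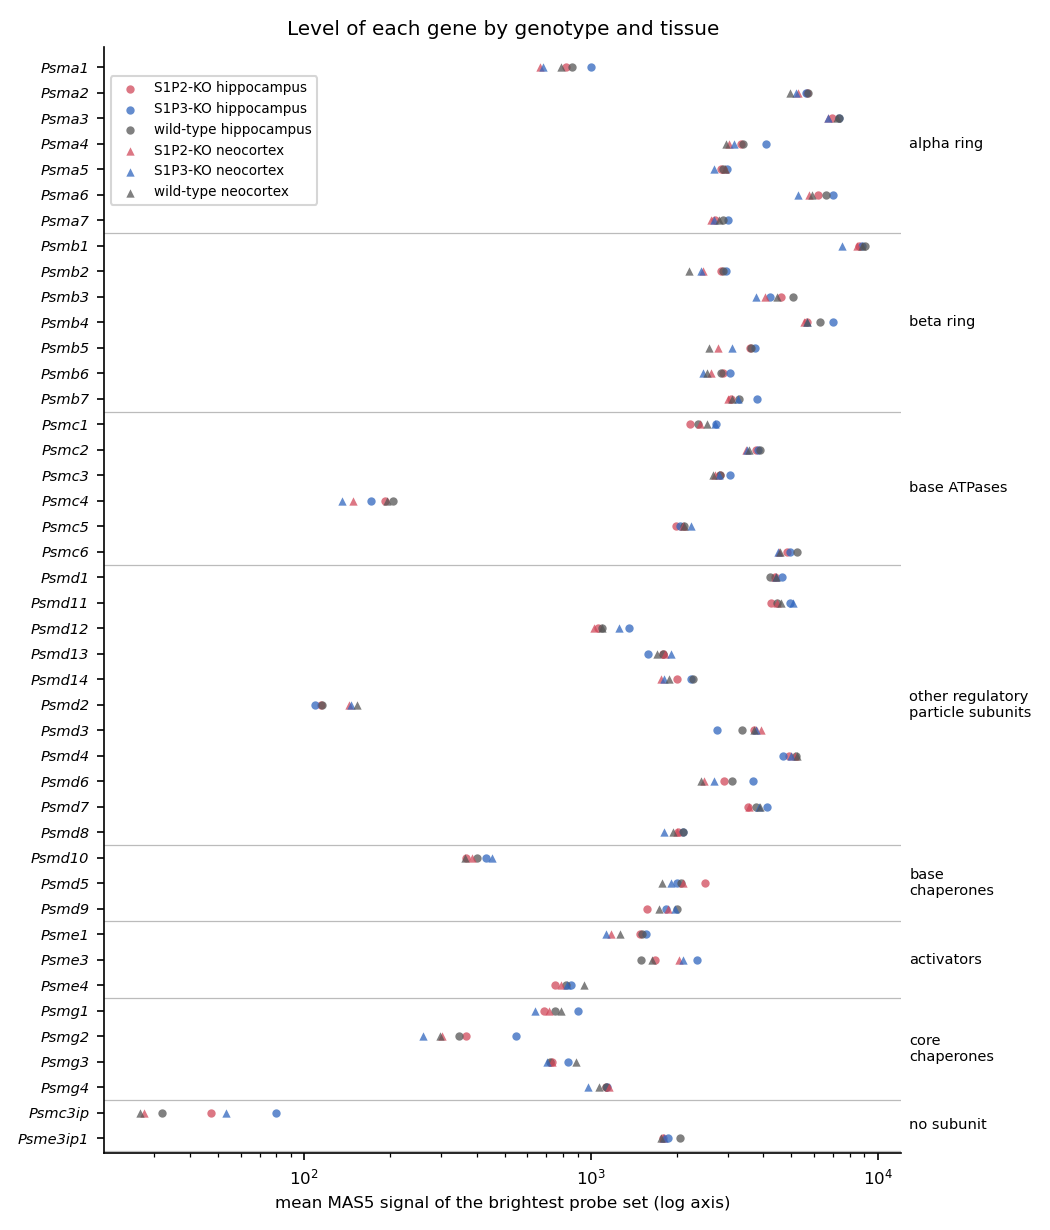
Mean MAS5 signal (log axis) of each of the 43 genes in the 6 groups, with genes ordered by role from the alpha ring at the top to the symbols that are no subunit at the bottom. Circles are hippocampus and triangles neocortex. For most genes the 6 points nearly coincide, while Psmg2 shows S1P3-KO hippocampus (547) apart from the other groups, and Psmc3ip, not tested, spans the widest relative range.

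The first question was whether the proteasome genes differ between S1P2-KO and wild-type brain. In the hippocampus none of the 41 genes changed, and the percentage of all tested probe sets called was 0. The differences were small and mostly of one sign. S1P2-KO was lower than wild-type for 34 of 41 genes, among them all 7 alpha subunits, all 6 ATPases and 6 of 7 beta subunits. The median log2 difference was -0.06 for the 41 genes and -0.00 for all probe sets. At an unadjusted p under 0.05 there were 2 genes (4.88%), against 5.54% of all probe sets, and for 36 of the 41 genes the 95% interval of the difference lay within 0.5 of 0. The genes share arrays and covary, so the count of one sign is not a count of independent observations.

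The smallest p-values in the hippocampus belonged to chaperones of the regulatory particle's base. Psmd9 had lowest, median and highest signals of 1001, 1418 and 2548 in S1P2-KO hippocampus, against 1507, 1952 and 2383 in wild-type hippocampus. Although 5 of 10 S1P2-KO arrays lay below every wild-type array, the ranges overlapped, and the log2 difference of -0.40 ± 0.15 had a limma adjusted p of 0.809. Psmd5 had signals of 1890.5, 2268 and 3265 in S1P2-KO hippocampus, against 1513, 1986 and 2861 in wild-type hippocampus. The wild-type median was exceeded on 9 of 10 S1P2-KO arrays, with a difference of 0.27 ± 0.11 and an adjusted p of 0.809. Psme3ip1, no subunit, came next, with signals of 1385, 1871 and 2162 in S1P2-KO and 1853, 2024 and 2428 in wild-type hippocampus, a difference of -0.21 ± 0.11 and an adjusted p of 0.893.

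In the neocortex S1P2-KO and wild-type arrays again gave no call among the 41 genes, beside a background of 0%. The signs were balanced, with 19 genes higher and 22 lower, and both medians, of the 41 genes and of all probe sets, were -0.01. An unadjusted p under 0.05 was reached by 5 genes (12.2%), against 8.74% of all probe sets. Psma1, an alpha subunit, led them, with signals of 506, 704 and 753 in S1P2-KO neocortex against 701, 751 and 944 in wild-type neocortex. The ranges overlapped, with 5 of 10 S1P2-KO arrays below every wild-type array, and the difference was -0.24 ± 0.08 with an adjusted p of 0.363. Psmd5 was again on the higher side in S1P2-KO, with signals of 1474, 2068 and 2670.4 against 1382, 1805 and 2015 in wild-type, a difference of 0.23 ± 0.09 and an adjusted p of 0.399. With the 3′ to 5′ ratio as covariate that difference was 0.10. Psmc4, an ATPase with a mean signal of 178, had the lowest difference in neocortex, -0.38 ± 0.27 with an adjusted p of 0.717, and the widest interval, -0.94 to 0.18.

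The activator Psme3, which forms a nuclear cap that opens the core without ubiquitin, stood on the same side in each of these contrasts. In the neocortex its signals were 1556, 2039 and 2447 in S1P2-KO, against 1049.7, 1436 and 2480.5 in wild-type. The S1P2-KO arrays, 10 of 10, exceeded the wild-type median, and none exceeded the highest wild-type array. The log2 difference was 0.36 ± 0.14 (95% interval 0.08 to 0.65) with an adjusted p of 0.4. In the hippocampus the signals were 1387, 1661 and 2168 in S1P2-KO, against 822, 1187 and 2458 in wild-type, again with 10 of 10 knockout arrays exceeding the wild-type median. There the difference was 0.26 ± 0.18 and the adjusted p 0.925. The wild-type arrays themselves stood apart from each other, so that a count over their median hides a split. Replicates 5, 8, 9 and 10 of wild-type hippocampus had 2326, 1899.6, 2118 and 2458, against 822 to 1253 on the other 6 arrays, and replicates 8, 9 and 10 of wild-type neocortex were also its highest, at 2134, 2151 and 2480.5.

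The S1P3-KO arrays gave a second contrast against the same wild-type arrays, so the 2 sets of values are not independent. In the neocortex none of the 41 genes changed (background 0%), 19 were higher, and the median difference was -0.01 against -0.00 for all probe sets. An unadjusted p under 0.05 was reached by 4 genes (9.76%), against 10.5% of all probe sets. Psmb5, the subunit with chymotrypsin-like activity, had signals of 3467, 2174, 3259, 3206 and 3375 on the S1P3-KO arrays, against a lowest, median and highest of 2352, 2544 and 2853 in wild-type neocortex. Of the 5 S1P3-KO arrays 4 lay above every wild-type array and replicate 2 below every one, and the difference was 0.24 ± 0.09 with an adjusted p of 0.315. Without replicate 2 it was 0.37, while a second, dimmer probe set of Psmb5 gave -0.22 and the average of both 0.0082. Psmb1, a structural beta subunit, had signals of 4284, 8562, 7998, 8710.1 and 7888 in S1P3-KO and 7673, 8439.9 and 10139 in wild-type. Replicate 1 alone lay outside the wild-type range, and the difference was -0.29 ± 0.11 with an adjusted p of 0.371. Without that array it was -0.10, and the next probe set of Psmb1 gave a difference of the other sign, 0.24 ± 0.12. Psme3 had signals of 2524, 2382, 1735, 1533 and 2277 in S1P3-KO neocortex, all 5 above the wild-type median of 1436, a difference of 0.38 ± 0.17 and an adjusted p of 0.434.

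In the S1P3-KO hippocampus no proteasome gene changed either, where 0.0352% of all probe sets were called. The median difference was 0.03 over the 41 genes and -0.01 over all probe sets. Without replicate 5 it was -0.02, with 20 of 41 genes higher in S1P3-KO in place of 22. At an unadjusted p under 0.05 there were 4 genes (9.76%), against 9.54% of all probe sets. Without replicate 5 there were 7 genes (17.1%), against 7.68% of all probe sets.

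The core chaperone Psmg2, which with Psmg1 starts the assembly of the alpha ring, came closest to the threshold. Its signals were 464, 580.4, 521, 439 and 729.9 in S1P3-KO hippocampus, against a lowest, median and highest of 208, 351 and 451 in wild-type hippocampus. All 5 S1P3-KO arrays exceeded the wild-type median, and 4 exceeded every wild-type array. The log2 difference was 0.60 ± 0.15 (95% interval 0.29 to 0.92) with a limma adjusted p of 0.159, and without replicate 5 it was 0.51 with an adjusted p of 0.396. Psme3 had signals of 2103, 2435, 1598, 2732 and 2856 in S1P3-KO hippocampus, against 822, 1187 and 2458 in wild-type hippocampus. Every S1P3-KO array exceeded the wild-type median, and the difference was 0.70 ± 0.22 with an adjusted p of 0.289, or 0.64 and 0.474 without replicate 5. Psma4, an alpha subunit, had signals of 4018, 3433, 3833, 3967 and 5193 in S1P3-KO and 2957, 3406 and 3722 in wild-type hippocampus. Its difference of 0.25 ± 0.08 (adjusted p 0.33) was 0.16 (adjusted p 0.608) without replicate 5.

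The same array decided 2 regulatory particle subunits, Psmd3 and Psmd13, in the other direction. Psmd3 had signals of 2965, 3400.1, 3189.8, 3734 and 467 on S1P3-KO hippocampus replicates 1 to 5, and Psmd13 had 1797, 1912, 1946, 1941 and 341. Replicate 5 was the lowest by far for both, while the wild-type hippocampus arrays ranged from 2911 to 4318 for Psmd3 and from 1477 to 2107 for Psmd13. The log2 differences of -0.55 ± 0.29 and -0.36 ± 0.24 were -0.02 and 0.09 without it. On the same array the beta subunits Psmb1 and Psmb7 reached 12652 and 6066, above every other array of its group. The part of RNA integrity in these values was not tested gene by gene.

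**Figure D2:**
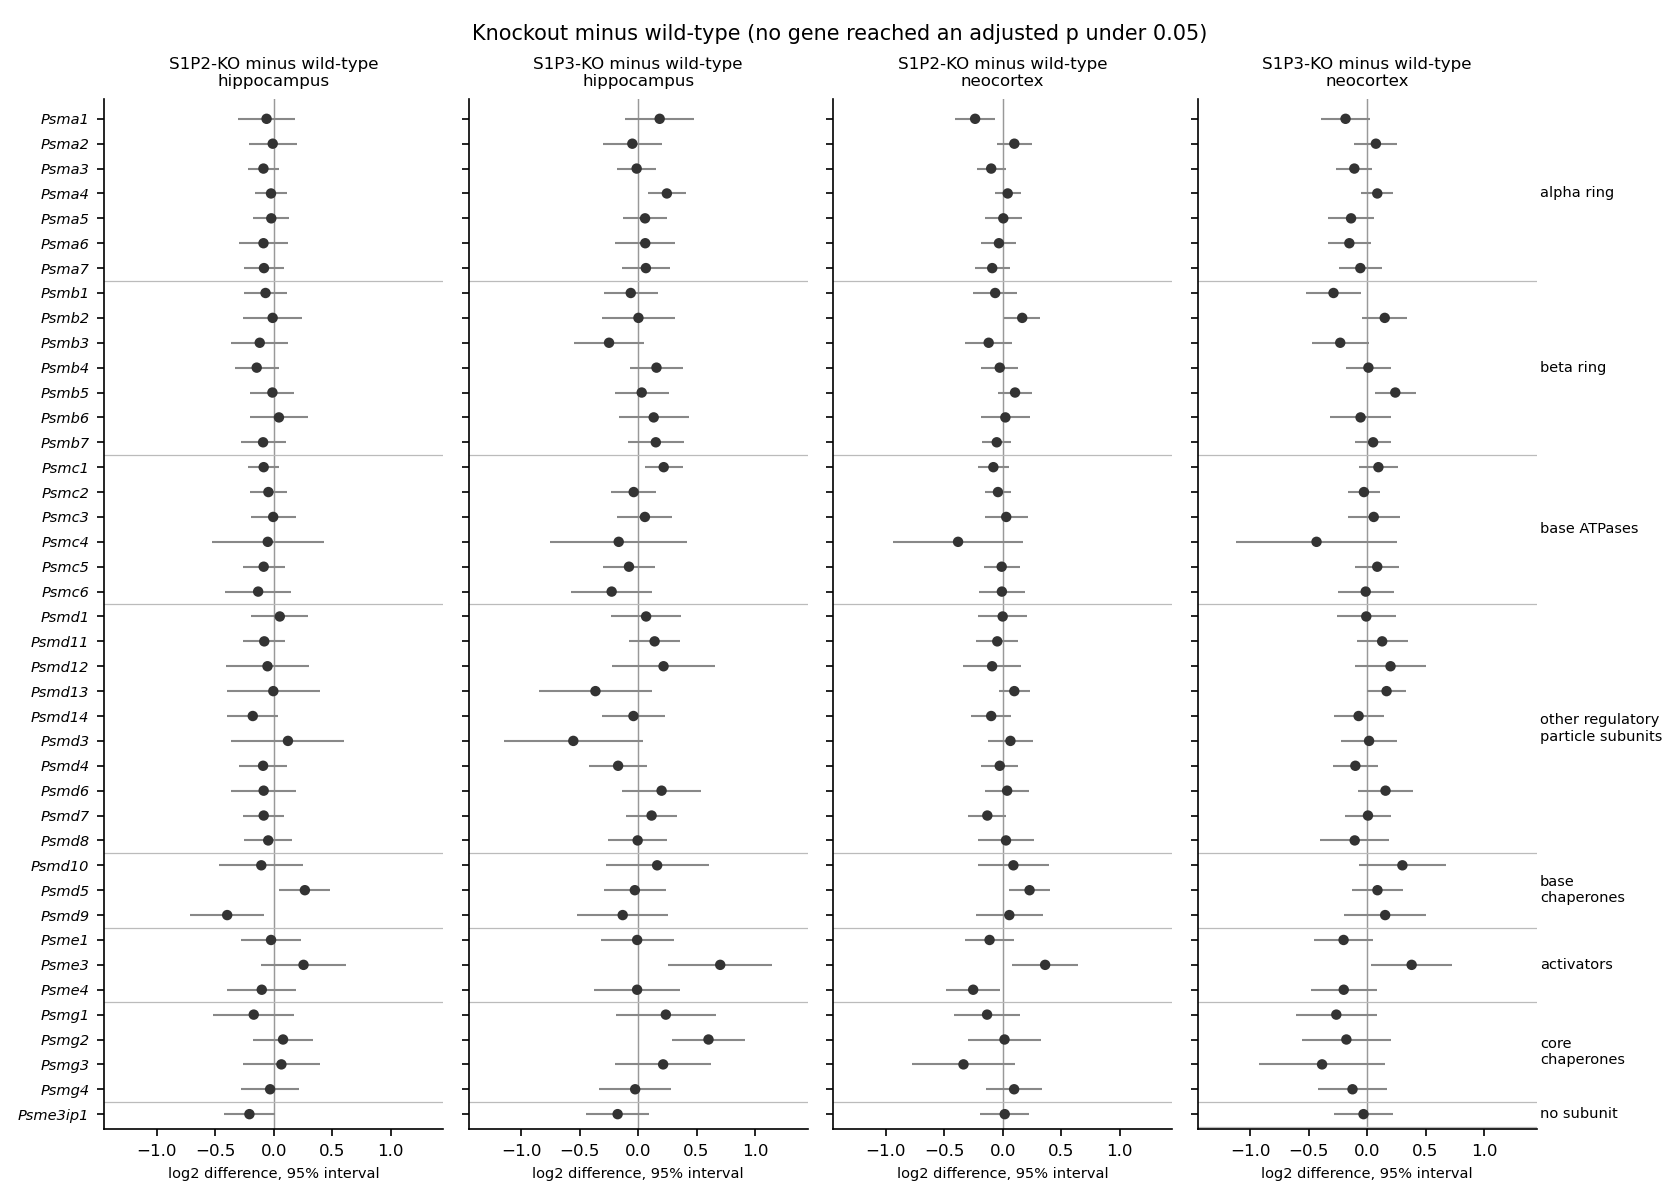
Log2 difference of knockout minus wild-type with its 95% interval for each of the 41 tested genes, in hippocampus (left panels) and neocortex (right panels). No gene reached an adjusted p under 0.05; most intervals cross 0, those of Psmg2 and Psme3 in S1P3-KO hippocampus (0.60 and 0.70) lie above it, and Psmc4 has the widest intervals in neocortex.

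The 2 knockouts were also compared with each other. No gene changed in either tissue, with backgrounds of 0% in hippocampus and 0% in neocortex. In the hippocampus S1P2-KO was higher than S1P3-KO for 8 of 41 genes, the median difference was -0.08 against 0.01 for all probe sets, and 9 genes (22%) had an unadjusted p under 0.05, against 11.5% of all probe sets. Without S1P3-KO replicate 5 these were 17 genes, a median of -0.05 and 4 genes (9.76%). In that fit all probe sets had a median of -0.01, and 6.64% of them had an unadjusted p under 0.05. Psmc1, an ATPase, had the smallest p. Its signals were 1935, 2226 and 2486 in S1P2-KO hippocampus and 2997, 2644, 2419, 2679 and 2964 in S1P3-KO hippocampus, and 9 of 10 S1P2-KO arrays lay below every S1P3-KO array. The difference was -0.30 ± 0.08 with an adjusted p of 0.168, and -0.27 with 0.455 without replicate 5. In the neocortex S1P2-KO was higher for 21 of 41 genes, the median was 0.01 against -0.00 for all probe sets, and Psmc1, at -0.18 ± 0.08, was the only gene with an unadjusted p under 0.05 (2.44%, against 5.93% of all probe sets). Psmd12, a scaffold subunit of the regulatory particle, and Psmb1 came next, with differences of -0.29 ± 0.15 and 0.22 ± 0.11, and the Psmb1 value was 0.03 without S1P3-KO neocortex replicate 1.

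The comparison of hippocampus with neocortex was the one in which proteasome genes passed the test. Every call was for a higher level in hippocampus: 3 genes in S1P2-KO, 4 in S1P3-KO and 4 in wild-type mice, and 0 were lower. The corresponding percentages of all probe sets called were 14.7%, 12% and 14.6% in both directions together, and 7.62%, 5.99% and 7.83% for higher in hippocampus alone (7.09%, 6% and 6.74% for lower), so that the share of the 41 genes called was near the background. The signs leaned the same way. Hippocampus was higher for 25, 32 and 29 of 41 genes, with medians of 0.04, 0.16 and 0.09 against 0.02, -0.00 and 0.01 for all probe sets. Without S1P3-KO hippocampus replicate 5, the S1P3-KO values were 2 genes called, 25 of 41 higher and a median of 0.09, beside 4.09% of all probe sets called higher, 3.83% called lower and a median of 0.01. That array also enters the spread shared by the other genotypes. Without it 5 genes were called in wild-type, beside 8.92% of all probe sets called higher and 8.23% lower. In S1P2-KO 3 genes were called, beside 8.73% and 8.37%.

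By role, both rings of the core particle leaned to hippocampus in each genotype. All 7 beta subunits were higher in hippocampus in each genotype, with medians of 0.16, 0.26 and 0.15 in S1P2-KO, S1P3-KO and wild-type. Of the 7 alpha subunits, 6, 7 and 6 were higher, with medians of 0.10, 0.18 and 0.11. The 10 tested regulatory subunits other than the ATPases were split, with 4, 6 and 4 higher and medians of -0.01, 0.01 and -0.01. Of the 6 ATPases, 4, 4 and 5 were higher, with medians of 0.07, 0.06 and 0.08. The small groups varied: 1, 1 and 3 of 3 base chaperones were higher, with a wild-type median of 0.20, as were 2, 4 and 2 of 4 core chaperones, with an S1P3-KO median of 0.36, and 1, 2 and 1 of 3 activators. Without S1P3-KO hippocampus replicate 5, the S1P3-KO counts were 7 of 7 beta subunits, 6 of 7 alpha subunits, 2 of 6 ATPases and 3 of 10 other regulatory subunits, with medians of 0.16, 0.13, -0.02 and -0.06. No difference between roles was tested.

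Psmb5 had the smallest adjusted p in S1P2-KO and in wild-type mice. Its signals were 3070.1, 3495 and 4529 in S1P2-KO hippocampus, against 2546, 2766 and 3098 in S1P2-KO neocortex. In wild-type mice they were 3054, 3518 and 4407 in hippocampus, against 2352, 2544 and 2853 in neocortex. All 10 wild-type hippocampus arrays lay above every wild-type neocortex array, and 8 of 10 did so in S1P2-KO. The log2 difference was 0.36 ± 0.08 in S1P2-KO (limma adjusted p 0.000974) and 0.47 ± 0.08 in wild-type (adjusted p 1.36e-05). In S1P3-KO the signals were 2774, 4347, 4498, 3929 and 3147 in hippocampus and 3467, 2174, 3259, 3206 and 3375 in neocortex, 3 of 5 hippocampus arrays were above every neocortex array, and the difference of 0.26 ± 0.12 had an adjusted p of 0.131.

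A dimmer Psmb5 probe set with a mean signal of 552 did not show this difference. It gave -0.15, -0.07 and -0.12 in S1P2-KO, S1P3-KO and wild-type, and its residuals correlated with those of the brighter probe set at r = -0.49 over 50 arrays. With both probe sets averaged the difference was 0.10 in S1P2-KO (adjusted p 0.357) and 0.18 in wild-type (adjusted p 0.0618). The name of the brighter probe set carries the suffix that Affymetrix gives to probes that may match more than 1 transcript. The Psmb5 call therefore rests on that probe set alone.

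Psma4 was higher in hippocampus in S1P3-KO and in wild-type mice. Its signals were 4018, 3433, 3833, 3967 and 5193 in S1P3-KO hippocampus and 3574, 2797, 3190.5, 3137 and 3023 in S1P3-KO neocortex, a difference of 0.36 ± 0.08 with an adjusted p of 0.00127, or 0.28 with 0.0122 without replicate 5. In wild-type mice the signals were 2957, 3406 and 3722 in hippocampus, against 2631, 2991 and 3208 in neocortex. There 8 of 10 hippocampus arrays lay above every neocortex array, and the difference was 0.20 ± 0.06 with an adjusted p of 0.00936. In S1P2-KO it was 0.14 ± 0.06 and did not pass (adjusted p 0.108).

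Psma1 was higher in hippocampus in both knockouts. Its signals were 608, 852 and 943 in S1P2-KO hippocampus, against 506, 704 and 753 in S1P2-KO neocortex, with 8 of 10 hippocampus arrays above every neocortex array, a difference of 0.29 ± 0.10 and an adjusted p of 0.0429. In S1P3-KO they were 1069.9, 942, 933, 644 and 1425 in hippocampus and 616, 679, 630.1, 787 and 702 in neocortex, with a difference of 0.48 ± 0.14 (adjusted p 0.0177) that was 0.35 without replicate 5 (adjusted p 0.126) and 0.42 without neocortex replicate 1 (adjusted p 0.0628). The wild-type difference of 0.11 ± 0.10 did not pass. Psma6, another alpha subunit, passed in S1P3-KO with 0.37 ± 0.13 (adjusted p 0.0478), from signals of 5719.7, 6389.9, 7060.3, 5969.9 and 9741 in hippocampus and 5170.2, 4698, 5785, 5151 and 5556 in neocortex. Without replicate 5, whose signal was the highest of the group, its difference was 0.25 (adjusted p 0.258). The Psma6 call was lost on leaving out any of 7 of the 10 S1P3-KO arrays, with no filter (adjusted p 0.0661), with quantile normalization (0.0565) and under 3 further alternatives.

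Psmb2, a structural beta subunit, passed in wild-type mice. Its signals were 2248, 2844 and 3989 in hippocampus, against 1712, 2141 and 2660.0 in neocortex, every hippocampus array exceeded the neocortex median, and the difference was 0.38 ± 0.10 with an adjusted p of 0.00648. The other catalytic subunits, Psmb6 with caspase-like and Psmb7 with trypsin-like activity, gave no call. Psmb6 had signals of 2137, 2738 and 3861 in wild-type hippocampus, against 2066, 2468 and 3144 in wild-type neocortex, and a difference of 0.13 ± 0.11. Psmb7 had 2926, 3333 and 3766 in wild-type hippocampus, against 2772, 3160.2 and 3403 in wild-type neocortex, and a difference of 0.08 ± 0.08.

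In the regulatory particle, Psmd6 passed in wild-type mice, with signals of 2031, 3128 and 4016 in hippocampus, against 2015, 2344 and 3111 in neocortex. The difference was 0.34 ± 0.12 and its adjusted p of 0.0402 was close to the threshold, reaching 0.053 with no filter on dim probe sets, and the call was lost on leaving out any of 12 of the 20 wild-type arrays. Psme1, a subunit of the interferon-inducible activator that caps the core, passed in S1P2-KO with signals of 1122, 1443 and 1902 in hippocampus, against 894, 1166 and 1674 in neocortex, a difference of 0.34 ± 0.11 and an adjusted p of 0.0378. With no filter Psme1 and Psma1 did not pass in S1P2-KO (adjusted p 0.0513 and 0.0625), and single left-out arrays ended their calls in 10 and 14 of 20 cases. Psmg2 had the largest tissue difference among the tested genes. Its signals in S1P3-KO were 464, 580.4, 521, 439 and 729.9 in hippocampus and 349.8, 188, 208, 263 and 293 in neocortex, so all 5 hippocampus arrays lay above every neocortex array. The difference was 0.99 ± 0.19 with an adjusted p of 0.000162, and 0.89 with 0.0014 without replicate 5. In S1P2-KO and wild-type mice it was 0.27 ± 0.13 and 0.21 ± 0.13, and neither passed.

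**Figure D3:**
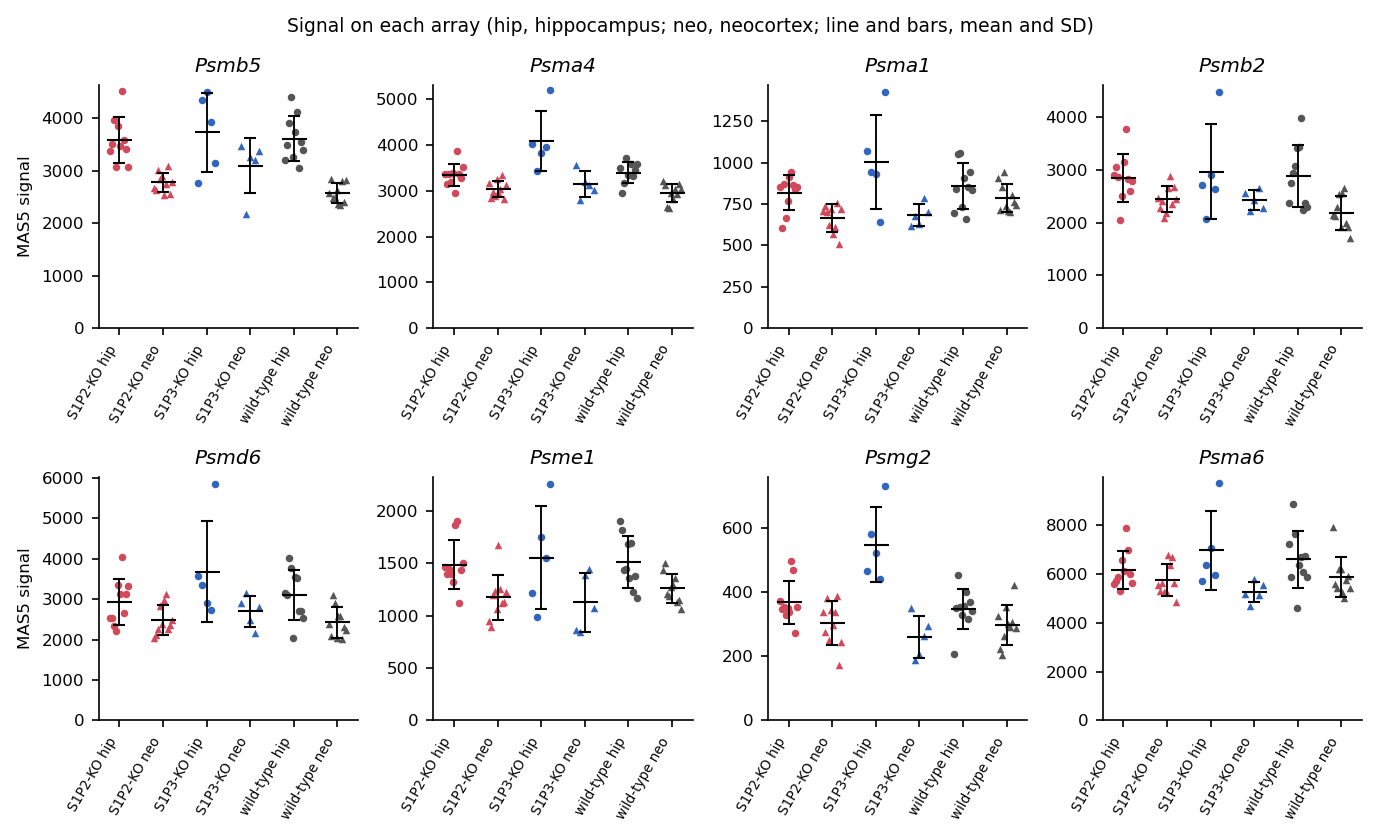
MAS5 signal of each array for the 8 genes that passed the test between tissues in at least 1 genotype, with circles for hippocampus and triangles for neocortex; the line and bars give the mean and SD (n = 10, or 5 for S1P3-KO). Wild-type hippocampus arrays lie above every wild-type neocortex array for Psmb5, S1P3-KO hippocampus arrays lie above every S1P3-KO neocortex array for Psmg2, and replicate 5 of S1P3-KO hippocampus is the highest array for each gene but Psmb5.

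Whether the tissue difference depends on genotype was tested as an interaction. No gene passed for the S1P2-KO effect or for the S1P3-KO effect in hippocampus against neocortex (background 0% for each), and at an unadjusted p under 0.05 there were 1 and 3 genes (2.44% and 7.32%), against 2.6% and 5.13% of all probe sets. The medians were -0.03 and 0.10, the second being -0.01 without S1P3-KO hippocampus replicate 5. In that fit the S1P3-KO effect had 2 genes (4.88%) at an unadjusted p under 0.05, against 3.39% of all probe sets. The base chaperone Psmd9 had the smallest p for S1P2-KO, -0.45 ± 0.22 with an adjusted p of 1. For Psmg2 the S1P3-KO effect was higher in hippocampus than in neocortex by 0.78 ± 0.23 on the log2 scale, with an adjusted p of 0.875, or by 0.68 without replicate 5. A call in one genotype and not in another is thus not a shown difference between genotypes.

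Some cell-type markers moved with tissue as well. Summed signals of 10 neuron markers were 92993 to 111300 on hippocampus arrays against 108761 to 128178 on neocortex arrays, those of 9 astrocyte markers 83339 to 102689 against 75750 to 92620, and those of 7 oligodendrocyte markers 31168 to 49593 against 28653 to 39321. The sums of 10 microglia markers, 13688 to 20359 against 15357 to 19944, overlapped over most of their ranges. So did those of 7 endothelium markers, 3980 to 6029 against 3718 to 5950. Summed signals of 6 choroid plexus markers, which trace neighbouring tissue, were 2967 to 46234 against 4441 to 12017. In hippocampus their medians were 16575, 6651 and 7983 in S1P2-KO, S1P3-KO and wild-type, with overlapping ranges. Those of 3 thalamus markers, also of neighbouring tissue, were 3697, 2311 and 3210 there, again with overlapping ranges. The part of all these markers in the proteasome values, between tissues or between genotypes, was not tested. In tissue RNA a different share of cells of a type and a different RNA content per cell cannot be told apart.

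**Figure D4:**
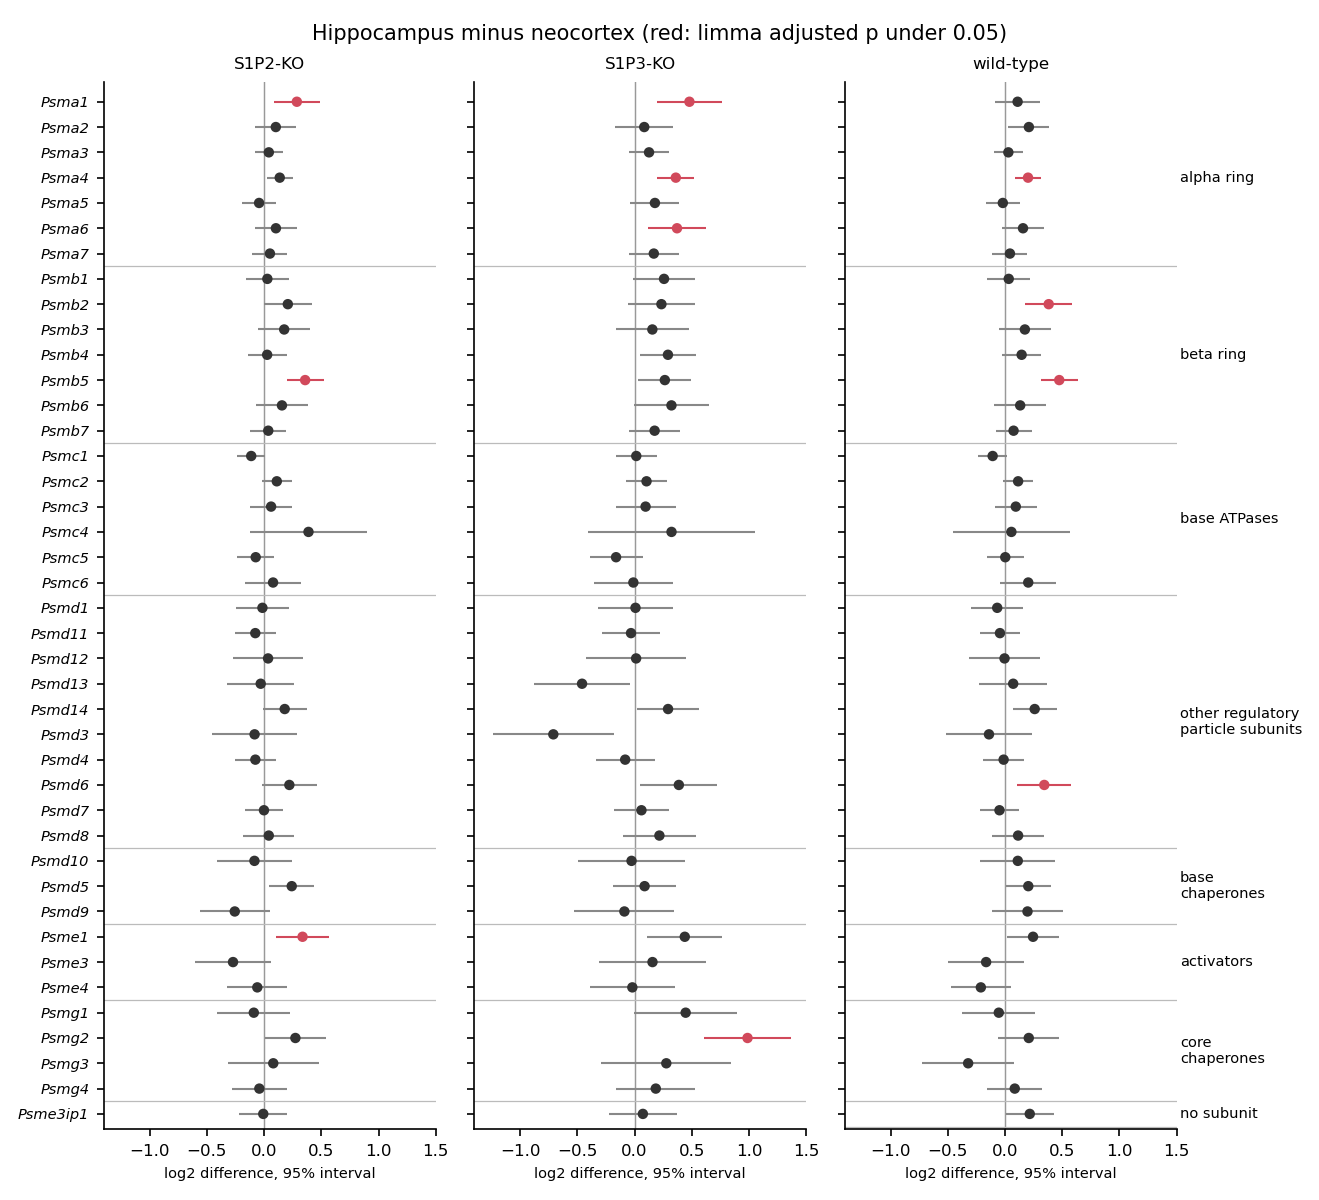
Log2 difference of hippocampus minus neocortex with its 95% interval for the 41 tested genes in S1P2-KO, S1P3-KO and wild-type mice; red marks a limma adjusted p under 0.05. Red points are all to the right of 0, the 7 beta subunits lie to the right in each panel, and Psmd3 and Psmd13 lie to the left in S1P3-KO (-0.71 and -0.46), the panel with the widest intervals.

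Upstream sequences are shown for the 3 genes called between tissues in more than a single genotype and for Psmb6, a catalytic subunit without a call. Each is the 200 bases before the annotated start, 5′ to 3′ on the strand of the gene, from RefSeq (GRCm38.p6). Capitals mark TGACNNNGC, the core of the antioxidant response element bound by the Nrf family, the CCAAT box and the GC box GGGCGG, each searched on both strands; GC boxes may overlap each other.
Psmb5, chr14:54617996-54618195, minus strand: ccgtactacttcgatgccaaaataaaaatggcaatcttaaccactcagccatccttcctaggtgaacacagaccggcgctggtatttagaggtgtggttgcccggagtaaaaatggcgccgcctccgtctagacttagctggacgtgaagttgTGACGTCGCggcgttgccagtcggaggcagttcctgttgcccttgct
Psma4, chr9:54950659-54950858, plus strand: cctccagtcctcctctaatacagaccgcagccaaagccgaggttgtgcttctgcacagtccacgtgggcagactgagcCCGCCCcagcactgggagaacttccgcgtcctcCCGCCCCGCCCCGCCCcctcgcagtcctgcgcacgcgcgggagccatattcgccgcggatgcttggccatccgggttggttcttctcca
Psma1, chr7:114276117-114276316, minus strand: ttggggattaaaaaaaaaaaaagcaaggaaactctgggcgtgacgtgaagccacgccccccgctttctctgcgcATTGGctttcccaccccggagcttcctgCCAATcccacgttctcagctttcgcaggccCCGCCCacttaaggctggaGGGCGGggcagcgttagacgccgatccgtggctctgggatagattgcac
Psmb6, chr11:70525157-70525356, plus strand: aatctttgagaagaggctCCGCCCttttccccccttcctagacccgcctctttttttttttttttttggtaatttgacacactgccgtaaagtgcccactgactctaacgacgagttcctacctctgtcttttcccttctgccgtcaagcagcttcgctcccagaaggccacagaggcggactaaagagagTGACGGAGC
Psmb5 and Psmb6 each hold a TGACNNNGC match near the start, Psma4 holds only GC boxes, and Psma1 holds CCAAT and GC boxes. Promoter windows from 250 bases before to 50 after the start were given for 36 of the 43 genes. TGACNNNGC was found for 6 of the 36 (16.7%), namely Psmb5, Psmb6, Psmc6, Psmd12, Psmd9 and Psme4, against 14.0% of 27025 genes. CCAAT was found for 14 (38.9%, against 41.1%) and GGGCGG for 22 (61.1%, against 38.2%). These matches are a description of letters in the window.

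Female and male mice were compared within each tissue, with 13 females and 12 males. No proteasome gene changed in either tissue, beside a background of 0.0586% in hippocampus and 0.0586% in neocortex, and the median differences were 0.05 and 0.02. Without S1P3-KO hippocampus replicate 5, a female array, the hippocampus median was 0.01, and without all 3 arrays of raised 3′ to 5′ ratio it was 0.0033. In hippocampus Psmc6, an ATPase, had the smallest p, with 5604 ± 1143 in females against 4403 ± 1023 in males, 12 of 13 females above the male median, a log2 difference of 0.37 ± 0.12 and an adjusted p of 0.823, or 0.31 and 0.727 without replicate 5. It was followed by Psmd1, a scaffold subunit of the base, with 4702 ± 911 in females against 3995 ± 778 in males (0.23 ± 0.11), and the core chaperone Psmg3, with 815 ± 143 against 677 ± 224 (0.30 ± 0.14). In neocortex Psmd4, a ubiquitin receptor, had 5412 ± 638 in females against 4872 ± 591 in males, a difference of 0.16 ± 0.07 and an adjusted p of 0.785, followed by Psmb7 at 0.11 ± 0.05 and Psme1 at 0.16 ± 0.09.

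Genes that work with the proteasome were followed from lists of enzymes of ubiquitin transfer and shuttling, regulators of proteasome genes, the immunoproteasome and peptide loading, and the cytosolic chaperonin. None of their tested genes passed in a comparison of genotypes. Between tissues, Psmb10, an inducible catalytic subunit, was the only called gene of 6 in its list. The shares of all probe sets called lower were 7.09%, 6% and 6.74% in S1P2-KO, S1P3-KO and wild-type. Psmb10 was lower in hippocampus in each genotype. It had 2437 ± 222 in S1P2-KO hippocampus against 3367 ± 221 in S1P2-KO neocortex (-0.46 ± 0.07, adjusted p 1.03e-06). The S1P3-KO values were 2407 ± 384 in hippocampus and 3358 ± 152 in neocortex (-0.49 ± 0.10, adjusted p 0.000367, or -0.50 ± 0.10 and 0.00051 without replicate 5), and the wild-type values 2632 ± 299 in hippocampus and 3269 ± 331 in neocortex (-0.31 ± 0.07, adjusted p 0.000843). Its direction was opposite to that of Psmb2, called in wild-type mice only, and of the brighter Psmb5 probe set. It was also opposite to that of Psmb6 and Psmb7, the other catalytic subunits, which were higher in hippocampus without a call. An exchange of one subunit for another was not tested. The dimmer Psmb5 probe set, not called, gave -0.15, -0.07 and -0.12 in S1P2-KO, S1P3-KO and wild-type, on the side of Psmb10.

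Of 30 tested ubiquitin and shuttling genes, 1 was higher in hippocampus in S1P2-KO, 1 in S1P3-KO and 2 in wild-type, and 0 were lower, beside 7.62%, 5.99% and 7.83% of all probe sets called higher. Ube2a, a ubiquitin-conjugating enzyme, passed in S1P2-KO (0.35 ± 0.10, adjusted p 0.00819) and S1P3-KO (0.43 ± 0.14, adjusted p 0.0313, or 0.31 ± 0.14 and 0.191 without replicate 5). Ube2v2, a partner of conjugating enzymes, and the ligase Nedd4 passed in wild-type (0.33 ± 0.11 and 0.21 ± 0.07, adjusted p 0.0314 and 0.0335). Of 4 tested regulators, only Nfe2l1 and Nfe2l2 were called with all arrays, both in S1P3-KO only, beside 12% of all probe sets there. Nfe2l1, the transcription factor that induces proteasome genes, had 4309 ± 1866 in S1P3-KO hippocampus against 7023 ± 242 in S1P3-KO neocortex (-0.89 ± 0.22, adjusted p 0.00434). Without replicate 5 its difference was -0.43 ± 0.12 (adjusted p 0.013). In that fit it was also called in S1P2-KO, at -0.43 ± 0.08 (adjusted p 4.13e-05), and in wild-type, at -0.36 ± 0.08 (adjusted p 0.000628). Mafk, a small Maf partner of the Nrf factors, and Ube2r2, a conjugating enzyme, were called higher in S1P2-KO hippocampus in that fit and not with all arrays (0.52 ± 0.19 and 0.19 ± 0.06, adjusted p 0.0491 and 0.0272). Nfe2l2, a relative of Nfe2l1 in the oxidative stress response, was higher in S1P3-KO hippocampus by 0.52 ± 0.17 (adjusted p 0.0321, and 0.0788 without replicate 5). Among the 8 chaperonin subunits only Cct5 was called, in each genotype, beside 7.62%, 5.99% and 7.83% of all probe sets called higher. It was higher in hippocampus by 0.36 ± 0.06, 0.63 ± 0.08 and 0.34 ± 0.06 in S1P2-KO, S1P3-KO and wild-type. The S1P3-KO value was 0.56 ± 0.08 without replicate 5.

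Finally, covariation among the genes was described from residuals after the group means and sex were removed. The median Pearson r over all pairs of the 41 genes was 0.15 over 50 arrays, against -0.00 over all tested probe sets. It was 0.33 among the 14 core subunits and 0.16 among the 16 tested subunits of the regulatory particle. For the chaperonin, cytosolic ribosome and respiratory chain genes it was 0.03, 0.14 and 0.19. With the 3 arrays of raised 3′ to 5′ ratio left out, the values for all 41 genes, the core and the regulatory particle were 0.10, 0.18 and 0.10. Those for chaperonin, cytosolic ribosome and respiratory chain genes were then -0.000351, 0.13 and 0.16. The points share arrays and their scaling, and no test was made.

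Psmc2, an ATPase, followed the mean of the other genes most closely, with r = 0.78 (0.69 without those 3 arrays), and 13 genes exceeded 0.5. Psmd3, Psme3, Psmd13, Psmg4 and Psmg3 were below 0, at -0.49, -0.48, -0.40, -0.33 and -0.28. Without the 3 arrays Psme3 was at -0.52, Psmg4 at -0.32 and Psmg3 at -0.37, while Psmd3 was at -0.21 and Psmd13 at 0.01. The activator Psme3 thus stayed below 0 without them, and its lowest pair over 50 arrays was the beta subunit Psmb3, at r = -0.76. Outside the family, the probe sets most like the mean of the 41 genes were those of Romo1, Ndufs1, Trappc2l, Map7d1 and Hacd3, with r from 0.79 to 0.82 over 50 arrays and from 0.70 to 0.75 without the 3, and 510 of 8493 other probe sets had r above 0.5.

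**Figure D5:**
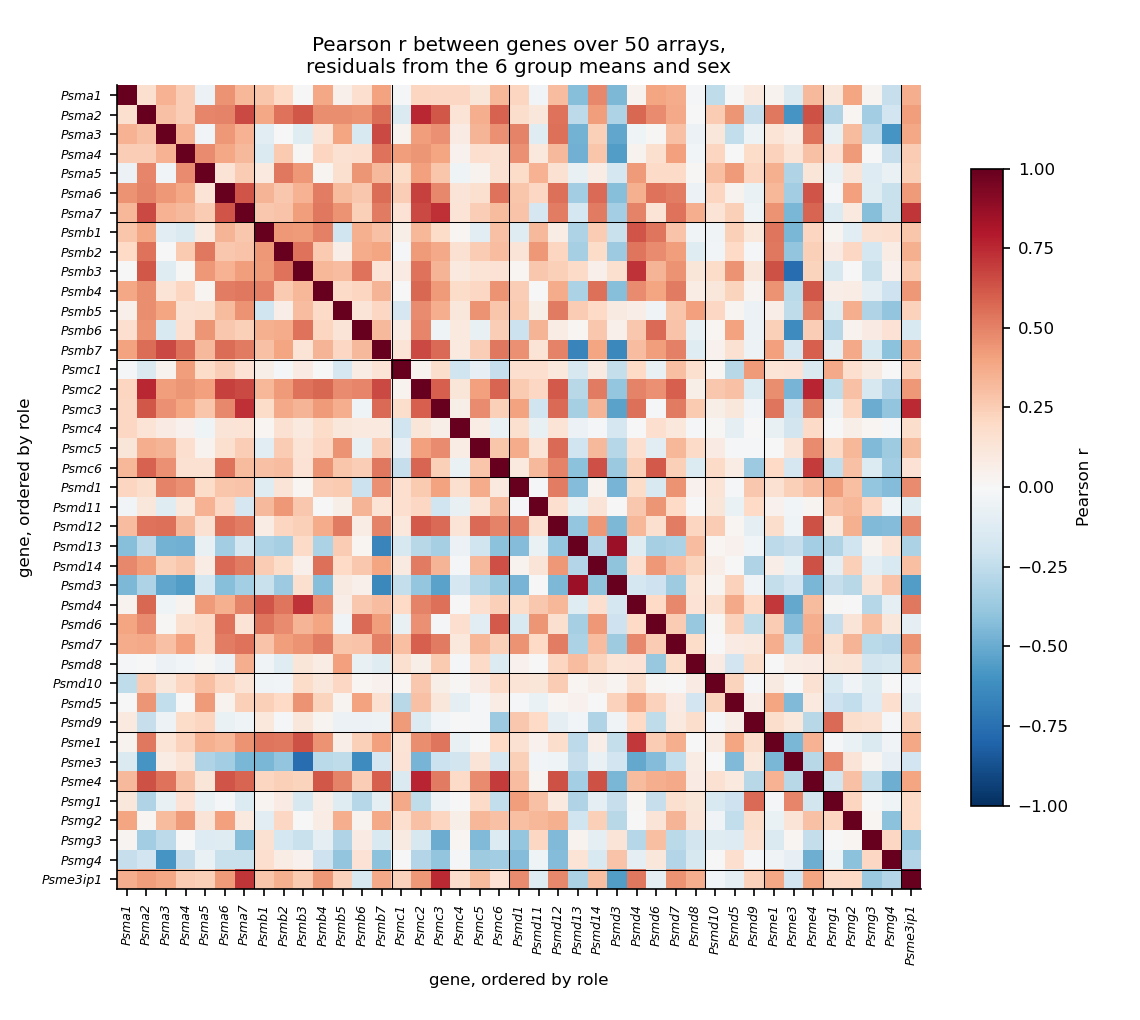
Pearson r between each pair of the 41 tested genes over 50 arrays, on residuals from the 6 group means and sex, with genes ordered by role (lines separate roles; red positive, blue negative). The core subunits and Psmc2 form mostly red blocks, and Psmd3, Psmd13, Psme3, Psmg3 and Psmg4 form blue stripes across them.

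Probe sets of one gene did not always move together. Of the 8 genes with several probe sets, those of Psmc3 had residual correlations of 0.61 and 0.64 with the brightest, while the next probe set of Psmb1 had 0.26, that of Psmg3 had 0.04 and that of Psmd11 had -0.17. In addition, the names of 8 of the 43 chosen probe sets carry suffixes for probes that may match more than 1 transcript or were chosen under relaxed rules, those of Psma3, Psmb4, Psmb7, Psmc3, Psmd12, Psmb5, Psmd9 and Psmg3. The values given for these genes are therefore values of a probe set.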

How the data were processed

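Total RNA of hippocampus and neocortex was hybridised as biotin-labelled cRNA to 50 one-colour Affymetrix arrays, per the labels' protocols. The deposited values are intensities (signals) of 12488 probe sets made with MAS5, per the submitters' processing notes, and scaled so that each array's trimmed mean is about 1000.6; the scaling was read from the values. Gene symbols came from the platform's probe table and were matched to RefSeq by gene ID for all 43 genes. From the deposited intensities log2(signal + 30.7) was computed. The 66 control probe sets were left out, as were probe sets whose mean log2 value was at or below that of a signal of 132.6, the 30th percentile over all arrays; 8534 probe sets of 6350 genes remained. limma 3.58.1 (R 4.3.3; lmFit, eBayes with a trend) was fitted per tissue with genotype and sex for comparisons of genotype and sex, and over 50 arrays with 6 group means and sex within tissue for tissue differences and interactions. On average the code recovered the size of known shifts in simulated data with independent noise. Those shifts were larger than most differences reported here, so the detection of small differences was not examined. The number of arrays limits the precision. Genes given in full are those past the threshold in any comparison, the 3 of smallest p in each, the 2 of widest spread between groups, the catalytic subunits and Psme1, and several probe sets of a gene were set against each other; list genes are named where they passed, and 5 outside genes by the highest r with the mean of the 41. The genes and lists were chosen with earlier results of these data known. Array groups followed the sample titles, since the series text names the groups at odds with them. Replicate numbers were not treated as pairs of tissues, since the labels do not say that equal numbers are the same animal. Residuals of same-numbered arrays of the tissues correlated above 0.1 for 6 of 10 wild-type, 9 of 10 S1P2-KO and 2 of 5 S1P3-KO numbers. Between S1P2-KO and wild-type, which are different animals, this held for 1 of 10 numbers in neocortex and 4 of 10 in hippocampus. Between S1P3-KO and wild-type it held for 0 of 5 in each tissue. A shared animal thus remains possible, and the replicate block was run as an alternative. Alternatives were another offset, filter, normalization and probe-set rule, the 3′ to 5′ ratio as covariate or exclusion, no sex term, a replicate block, fewer samples in the fit, and each array left out.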

Additional observations from a re-analysis of the deposited data

Results flagged for a closer look

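In groups of 4 to 10 arrays, an array was set apart where its distance to the nearest other array was a large share of the group's range by Dixon's criterion at 95%. Of 144 group tests over the 23 genes given in full and the mean of the 41 genes, 14 were set apart. For independent tests chance alone sets apart about 1 in 20, or 7.2. These tests share arrays and most of the genes were chosen by their values in these data, so 7.2 is only a rough mark. The mean log2 value over the 41 genes was high on S1P2-KO hippocampus replicate 7 (11.29), an array of raised 3′ to 5′ ratio, and low on S1P3-KO neocortex replicate 2 (10.94). S1P3-KO hippocampus replicate 5, the array of highest 3′ to 5′ ratio, was high for Psmb1 (12652) and Psmb7 (6066) and low for Psmd3 (467) and Psmd13 (341). In S1P3-KO neocortex, Psmb1 was low on replicate 1 (4284), Psmb5 low on replicate 2 (2174) and Psmb6 high on replicate 5 (2958). In S1P2-KO mice, Psmd12 was low on hippocampus replicate 10 (575) and Psmd9 low on neocortex replicate 9 (833). On wild-type hippocampus replicate 1, Psmc1 was high (2943) and Psmg2 low (208), and Psma6 was high on wild-type neocortex replicate 1 (7917). What sets these arrays apart was not tested.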

How the results depend on the processing

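Of 2154 alternative values for 80 results, 2068 kept their direction and side of the threshold. All counts of 0 for proteasome genes between genotypes, between sexes and in interactions stayed at 0 under every alternative run. Between tissues the number of genes higher in wild-type hippocampus was 7 with a replicate block and 7 with only the groups compared, against 4. In S1P2-KO it was 1 with no filter and 1 with a gene's probe sets averaged, against 3, and 1 gene (Psme3) was lower with only the groups compared. In S1P3-KO it was 2 with the 3′ to 5′ ratio as covariate, 2 without the arrays of ratio above 1 and 1 with only the groups compared, against 4, and 1 gene (Psmd3) was lower with a replicate block. The median S1P3-KO effect in hippocampus against neocortex was -0.0258 with the ratio as covariate and -0.0021 without the arrays of ratio above 1, against 0.10. Leaving out 1 array at a time gave 3 to 5 genes higher in wild-type, 1 to 4 in S1P2-KO (1 without neocortex replicate 1 or 9 or hippocampus replicate 1, 3 or 7) and 2 to 7 in S1P3-KO (2 without neocortex replicate 1 or hippocampus replicate 5, 7 without hippocampus replicate 1). Genes lower in S1P3-KO hippocampus numbered 0 to 2 (1 without hippocampus replicate 2 or 3, 2 without replicate 4), and the median S1P3-KO effect ran from -0.00932 (without hippocampus replicate 5) to 0.13. The difference of Psme1 between females and males in neocortex changed sign, to -0.13, with its probe sets averaged. Over all probe sets, calls between S1P3-KO tissues were 1023, against 659 with the ratio as covariate, 255 with only the groups compared and 676 without hippocampus replicate 5. S1P3-KO against wild-type gave 23 calls in neocortex with the ratio as covariate, against 0, up to 10 there without S1P3-KO replicate 3, and in hippocampus 0 with a replicate block, 0 with only the groups compared and 0 to 12 with 1 array left out, against 3. S1P2-KO against wild-type neocortex gave 1 with the ratio as covariate, 3 with a replicate block and up to 8 with 1 array left out (wild-type replicate 6), against 0. S1P2-KO against S1P3-KO gave 1 in each tissue with that covariate and up to 4 with 1 array left out (S1P3-KO hippocampus replicate 1), against 0. Females against males gave 2 in hippocampus and 1 in neocortex at the 50th-percentile filter, against 5 in each. In the comparison of sexes only S1P3-KO hippocampus replicate 5 and the arrays of ratio above 1 were left out, and no neocortex array had such a ratio. The causes of these shifts were not tested, and the number of arrays, 5 per tissue in S1P3-KO, limits what could be called.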

Other observations

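Respiratory chain genes, another set of abundant transcripts of multi-subunit complexes, had medians for hippocampus against neocortex of 0.10 in S1P2-KO, 0.14 in S1P3-KO and 0.10 in wild-type mice over 65 tested genes. The calls were 3 higher and 1 lower in S1P2-KO, 4 and 1 in S1P3-KO, and 8 and 1 in wild-type. For 27 cytosolic ribosome genes the medians were 0.12, 0.11 and 0.12, with 3, 2 and 4 called higher and 0, 0 and 0 called lower. Of all probe sets, 7.62%, 5.99% and 7.83% were called higher and 7.09%, 6% and 6.74% lower in S1P2-KO, S1P3-KO and wild-type. Positive medians between tissues were thus not seen for proteasome genes alone. The S1P3-KO values of both sets include hippocampus replicate 5 and are not given without it. For the proteasome genes the S1P3-KO median was 0.16 with that array and 0.09 without it.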
